A study of Mus musculus with 32 samples.

Results

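The comparison set the change of cis p53/Nf1 gliomas from forebrain against the change of p53 Nf1KO gliomas from forebrain, gene by gene. It compared 20 of the 32 arrays of a mouse brain tumour study at all 18328 probe sets of the deposited matrix. The other arrays of the study entered only the estimate of the spread. For each probe set the quantity was a difference of differences on the log2 scale: the 9 cis p53/Nf1 gliomas minus the 3 forebrains of their set (Z1), minus the difference between the 4 p53 Nf1KO gliomas and the 4 forebrains of theirs (Z2). A positive value means that the cis p53/Nf1 gliomas lay higher relative to their forebrain than the p53 Nf1KO gliomas did relative to theirs.

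The cis p53/Nf1 gliomas came from hGFAP-cre;p53KO/+;Nf1+/flox mice, which carry 1 null p53 allele in every cell and 1 Nf1 allele that Cre can remove, in a study that calls the combination a conditional mutation in cis. The p53 Nf1KO gliomas came from hGFAP-cre;p53flox/flox;Nf1KO/+ mice, in which both p53 alleles depend on Cre and 1 null Nf1 allele is present in every cell. Both models share the hGFAP-cre transgene, in which a human GFAP promoter drives Cre. Non-tumour cells of the first model thus lack 1 p53 allele and those of the second 1 Nf1 allele, not counting alleles that Cre removes in them. Both forebrain groups were normal forebrain, taken from wild-type brain per the protocol. The labels give no ages, do not say whether each array was a separate mouse, and leave out the state of the second alleles in the tumours, and p-values therefore measure the spread between these arrays, which may be partly technical. Values are also given beside for the 9 p53 gliomas (hGFAP-cre;p53flox/flox, set Z2), which share the Z2 forebrains with the p53 Nf1KO gliomas. They are in no contrast here. With the normal cerebella of set Z2 they did enter the fit, and so the spread behind every SE and p-value.

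Nf1 encodes neurofibromin, a GTPase-activating protein that switches RAS proteins off, and p53 is the transcription factor that arrests or kills cells with damaged DNA. In the mouse both genes lie on chromosome 11, so losing 1 copy of that chromosome can remove a linked pair of alleles together. Diffuse gliomas grow among neurons, astrocytes and myelinating oligodendrocytes, and a piece of tumour holds RNA of both the tumour and the brain tissue around it.

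The sets lay on different scales. Array medians were 8.48 to 8.57 in the 12 Z1 arrays and 6.9 to 7.0 in the 8 Z2 arrays used, the SD within an array was 2.01 to 2.12 against 2.58 to 2.62, and the lowest value of an array was 3.95 to 4.35 against 0.985 to 1.84. Across the 18328 probe sets the mean of the Z1 forebrains correlated with the mean of the Z2 forebrains at r = 0.890, although both are normal forebrain, whereas the p53 Nf1KO gliomas correlated with the Z2 forebrains at r = 0.965 and the cis p53/Nf1 gliomas with the Z1 forebrains at r = 0.856. These correlations are across probe sets, which are not independent replicates. Subtracting each set's own forebrain removes a shift that is the same for glioma and forebrain, and nothing else, so the model and the set cannot be told apart for any other effect. Calls were therefore also made after quantile normalization and after giving every array 1 common median and SD, and percentile ranks of group means among the 18328 probe sets, which do not depend on the scale, are printed for some of the genes.

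The targeted genes were measured first. Nf1 read 7.64 to 8.43 (median 7.96) in the cis p53/Nf1 gliomas, against 7.86, 7.77 and 8.08 in the Z1 forebrains. It read 5.26, 5.61, 5.62 and 5.70 in the p53 Nf1KO gliomas, against 6.19, 6.19, 6.18 and 6.20 in the Z2 forebrains. All 4 p53 Nf1KO gliomas thus lay below all their forebrains, and the cis p53/Nf1 gliomas overlapped theirs. The Nf1 change was 0.07 in the cis p53/Nf1 gliomas (adjusted p = 0.787) and -0.64 in the p53 Nf1KO gliomas (adjusted p = 0.0281), and the difference of 0.72 ± 0.25 (SE) did not pass the threshold (adjusted p = 0.0985, and 0.0440 in a fit to the 4 groups alone). Trp53, which encodes p53, changed by -0.34 in the cis p53/Nf1 gliomas (adjusted p = 0.211) and by -0.77 in the p53 Nf1KO gliomas (adjusted p = 0.0310), with a difference of 0.43 (95% interval -0.20 to 1.06, adjusted p = 0.479). Rictor, a subunit of the mTORC2 kinase complex, differed by 0.31 (95% interval -0.22 to 0.83, adjusted p = 0.569). Since the position of these probes against the removed exons is unknown here, these values do not check the genotypes.

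The difference of differences passed the threshold (limma, Benjamini-Hochberg adjusted p under 0.05) at 752 of 18328 probe sets, or 4.10%, and 19.6% had an unadjusted p under 0.05. Of these, 328 (1.79%) lay higher and 424 (2.31%) lower in the cis p53/Nf1 gliomas, and 527 differed at least 2-fold, 169 higher and 358 lower. After quantile normalization the split was 1263 higher and 987 lower, and with a common median and SD 1424 higher and 1197 lower, so the scaling decides which direction holds more calls. All 3 scalings called 740 of the 752 probe sets in the same direction, 328 higher and 412 lower. The glioma arrays of the 2 models, each relative to its own forebrain, did not overlap at 723 of the 752, while 14.1% of all probe sets had no overlap. The number of calls leaned on single arrays: it was 284 without p53 Nf1KO glioma 2, 1251 without p53 Nf1KO glioma 4, 350, 347 and 340 without each of the Z1 forebrains 1, 2 and 3, 410 without Z2 forebrain 1 and 450 without Z2 forebrain 3.

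Most differing genes had moved in the cis p53/Nf1 gliomas and were not called in the p53 Nf1KO gliomas. Of the 424 probe sets lower in the cis p53/Nf1 gliomas, 417 had fallen there against forebrain, a change called at 20.1% of all probe sets, while 404 were not called in the p53 Nf1KO gliomas, where 3.20% of all probe sets fell. Of the 328 higher probe sets, 314 had risen in the cis p53/Nf1 gliomas, where 21.8% of all rose, and 40 in the p53 Nf1KO gliomas, where 5.18% rose. These counts come from the contrasts that make up the difference, so they describe the calls and add no separate evidence. The fit gives all groups 1 spread, so a missing call does not show that a gene had not moved. The 2 changes had r = 0.765 across probe sets, with an SD of 1.09 for the cis p53/Nf1 change and 0.684 for the p53 Nf1KO change. No named gene that met all the criteria for naming was called against forebrain in opposite directions in the 2 models.

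**Figure D1:**
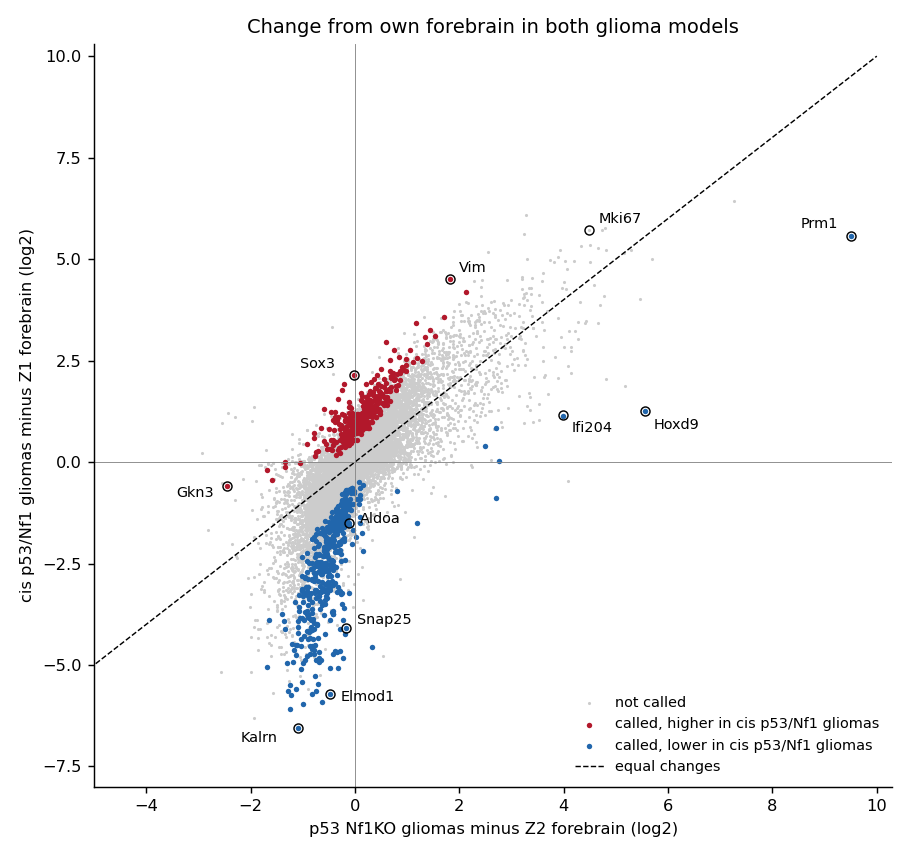
Change of each of the 18328 probe sets from its own forebrain (log2) in p53 Nf1KO gliomas (horizontal axis) and cis p53/Nf1 gliomas (vertical axis). Of the 424 probe sets called lower, below the dashed line of equal changes, 404 were not called on the horizontal axis, while Prm1, Hoxd9 and Ifi204 lie far to its right, and circles mark genes named in the text.

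The p53 Nf1KO gliomas differed from each other in how far they had left forebrain. Along the mean change of their own model, from the forebrain mean at 0% to the model's mean at 100%, p53 Nf1KO gliomas 1 to 4 sat at 111%, 59.8%, 93.8% and 135%, and the cis p53/Nf1 gliomas between 89.4% and 108%. Glioma 2 of the p53 Nf1KO model was thus the nearest to forebrain and glioma 4 the farthest.

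The 10 leading lower genes were mostly genes known from neurons. Kalrn encodes kalirin, a guanine nucleotide exchange factor of dendritic spines. It read 5.45 to 7.80 (median 5.80) in the cis p53/Nf1 gliomas, against 12.97, 12.80 and 12.61 in the Z1 forebrains. It read 11.13, 12.11, 9.46 and 9.68 in the p53 Nf1KO gliomas, against 11.22, 12.27, 11.06 and 12.21 in the Z2 forebrains. Every cis p53/Nf1 glioma lay far below its forebrains, whereas p53 Nf1KO gliomas 1 and 2 lay within the range of theirs and gliomas 3 and 4 below it. The difference was -5.45 ± 1.19 (SE, adjusted p = 0.00984). The 2 other probe sets of Kalrn differed by -1.15 (adjusted p = 0.0938) and -1.10 (adjusted p = 0.161) and were not called. By rank, Kalrn stood at percentile 13.5 in the cis p53/Nf1 gliomas and 97.3 in the Z1 forebrains, and at 92.6 in the p53 Nf1KO gliomas and 97.7 in the Z2 forebrains.

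At the other 9 the p53 Nf1KO arrays varied by gene: at Sphkap all 4 lay below their forebrains, and at Penk none did. Hpcal4 (-5.28) and Vsnl1 (-4.98) encode calcium sensors of neurons, and Sphkap (-4.77) encodes an anchor of protein kinase A. Nefl (-4.91), the light neurofilament subunit, read 6.27 to 9.83 (median 6.81) in the cis p53/Nf1 gliomas, against 13.17, 13.01 and 13.57 in the Z1 forebrains. It read 12.74, 11.81, 11.55 and 9.88 in the p53 Nf1KO gliomas, against 12.11, 12.17, 12.32 and 12.35 in the Z2 forebrains. For Nefl glioma 1 of the p53 Nf1KO model was above its forebrains and glioma 4 well below. Cck (-4.85) and Penk (-4.89) encode the neuropeptide precursors of cholecystokinin and enkephalin, Gria1 (-4.88) a subunit of AMPA glutamate receptors, Nrsn1 (-4.76) the vesicle protein neurensin 1, and Elmod1 (-5.23) a GTPase-activating protein for ARF-family GTPases. Adjusted p-values of these 9 ran from 0.00685 for Sphkap to 0.0487 for Penk. None of the 10 was called in the p53 Nf1KO gliomas against forebrain, where their changes ran from -1.23 for Cck to 0.33 for Penk. All groups share 1 spread in the fit, so a missing call does not show that a gene had not fallen there. At Elmod1 the SE of the p53 Nf1KO change was 0.88. The SD was 0.33 among the p53 Nf1KO gliomas, 0.14 among the Z2 forebrains and 1.21 among the cis p53/Nf1 gliomas. In the p53 gliomas, on the same Z2 forebrains, the 10 changed on average by -1.39 (Nrsn1) to -2.45 (Gria1). Penk lost its call in 17 of 20 fits that left out 1 array, Hpcal4 in 13, Gria1 in 3 (Z1 forebrains 1 and 2, p53 Nf1KO glioma 2) and Nefl in 1 (Z1 forebrain 3), and the other 6 kept theirs in all 20.

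**Figure D2:**
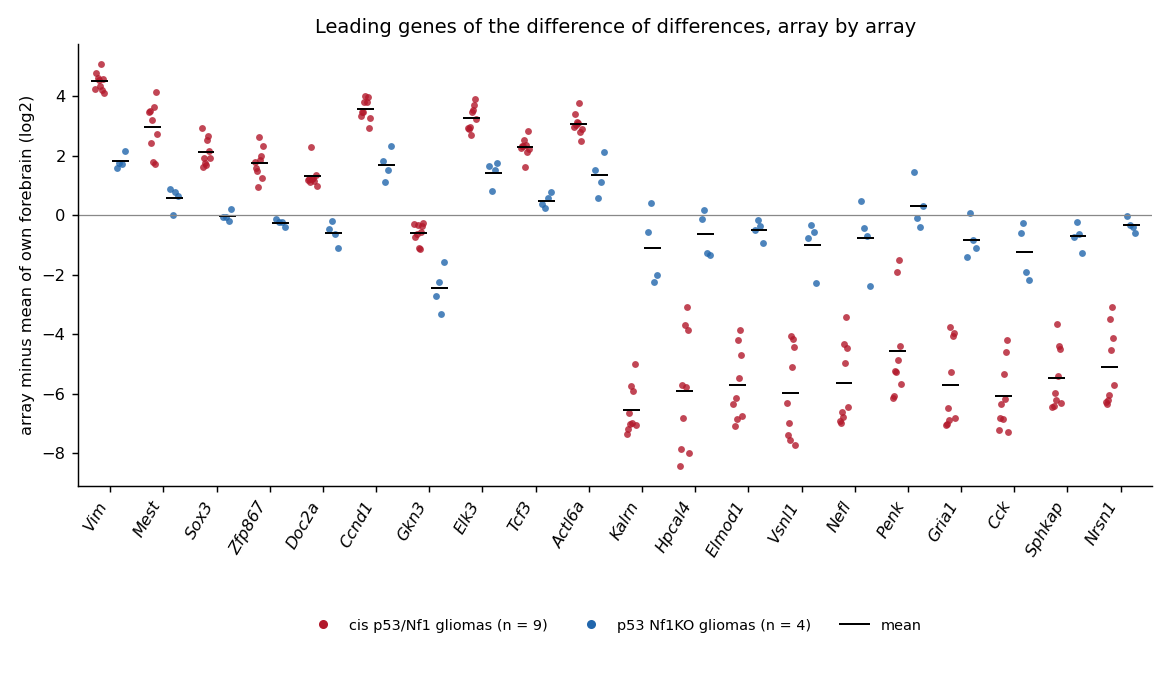
The 10 leading higher and 10 leading lower genes, each array minus the mean of its own forebrain (log2), with cis p53/Nf1 gliomas left of p53 Nf1KO gliomas and a bar at each mean. A lack of overlap between the models was a criterion for choosing these genes, and at the lower genes the p53 Nf1KO arrays ran from -2.36 (Nefl, glioma 4) to 1.47 (Penk, glioma 1).

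The fall of neuronal transcripts was broad. All 34 measured genes of the mature neuron list had a negative difference (median -3.0), against a median of 0.067 over all probe sets. Of the 34, 13 passed the threshold and all 13 were lower, where 2.40% of named genes were called lower. The count was 27 after quantile normalization, 28 with a common median and SD, 28 in a fit to the 4 groups alone, and 8 without Z1 forebrain 1. Against forebrain, all 34 had fallen in the cis p53/Nf1 gliomas (median -3.65) and 2 in the p53 Nf1KO gliomas (median -0.82): Dlg4 (-1.46, adjusted p = 0.00714), which encodes the scaffold protein PSD-95, and Grin2a (-0.76, adjusted p = 0.0491), an NMDA receptor subunit. In the single p53 Nf1KO gliomas the list's median was -0.57, -0.22, -0.74 and -1.46, and in the cis p53/Nf1 gliomas it lay between -4.42 and -2.68, so the models did not overlap. In bulk tissue, fewer cells of a type and less RNA per cell cannot be told apart.

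Within the list the size of the difference varied by gene. Snap25, a SNARE protein that fuses synaptic vesicles with the membrane, read 6.33 to 9.28 (median 7.42) in the cis p53/Nf1 gliomas, against 11.48, 11.99 and 11.78 in the Z1 forebrains. It read 12.32, 12.22, 12.28 and 12.14 in the p53 Nf1KO gliomas, against 12.44, 12.45, 12.31 and 12.44 in the Z2 forebrains. Relative to the forebrain mean the p53 Nf1KO gliomas thus lay between -0.27 and -0.09 at Snap25, and the difference of differences was -3.91 ± 0.62 (SE, adjusted p = 0.00155). The 2 others with the lowest adjusted p were Syn1 (-2.76 ± 0.52, adjusted p = 0.00388), which tethers synaptic vesicles, and Rab3a (-2.46 ± 0.49, adjusted p = 0.00628), a GTPase of vesicle release. At the other end, Map2, a microtubule protein of dendrites, differed by -0.03, since it changed by -0.56 in the cis p53/Nf1 gliomas and by -0.53 in the p53 Nf1KO gliomas.

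**Figure D3:**
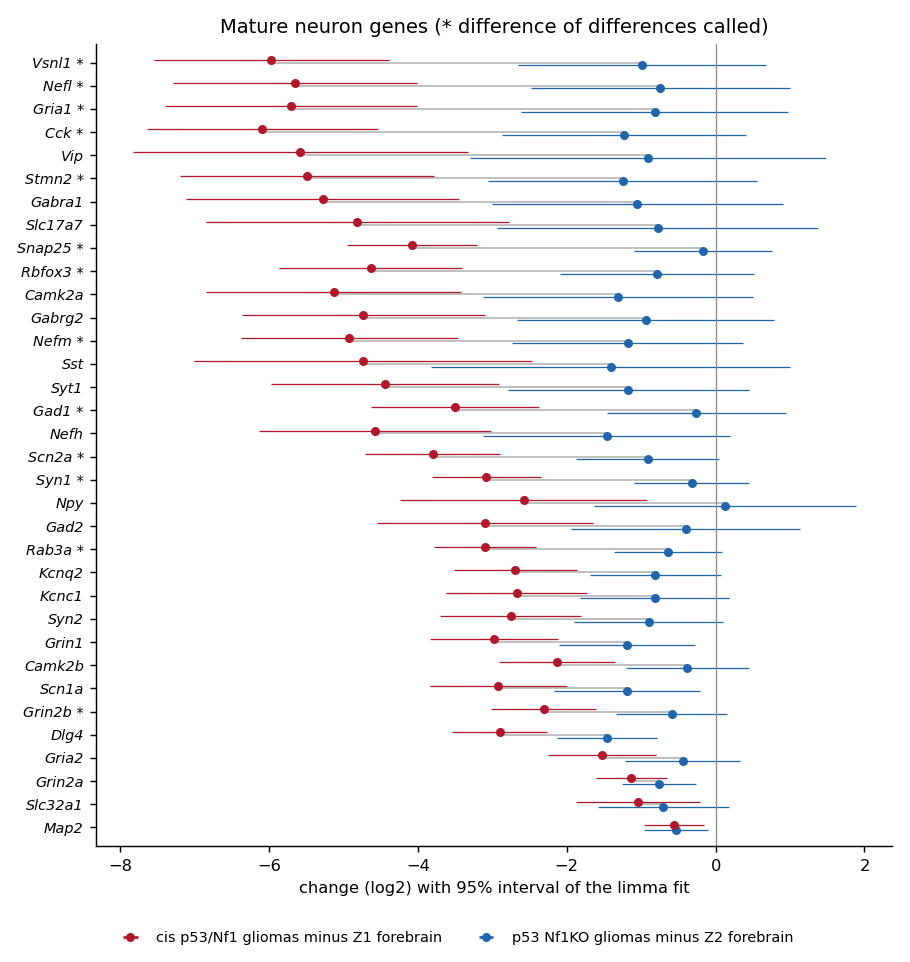
Change from own forebrain (log2, with 95% intervals of the limma fit) for the 34 measured mature neuron genes, cis p53/Nf1 gliomas above p53 Nf1KO gliomas in each row. Rows run from the largest difference, Vsnl1 (-4.98), to the smallest, Map2 (-0.03), and asterisks mark the 13 called genes.

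In the astrocyte list 3 of 18 genes were called lower and none higher, beside 2.40% of named genes called lower, among them Gja1 (connexin 43, the main astrocyte gap junction protein) and Glul (glutamine synthetase, -1.10 ± 0.31, adjusted p = 0.0427). Gja1 read 6.22 to 11.22 (median 8.16) in the cis p53/Nf1 gliomas, against 11.94, 11.90 and 12.27 in the Z1 forebrains. It read 10.34, 10.75, 10.74 and 10.33 in the p53 Nf1KO gliomas, against 10.92, 10.75, 10.84 and 10.80 in the Z2 forebrains, and the difference was -3.82 ± 0.91 (SE, adjusted p = 0.0166). The SD of Gja1 was 1.60 among the 9 cis p53/Nf1 gliomas and 0.24 among the 4 p53 Nf1KO gliomas. A second probe set of Glul differed by -1.13 and was not called (adjusted p = 0.147). Leaving out 1 array at a time, Gja1 lost its call in 1 of 20 fits and Glul in 15. The list's median was -1.37 in the cis p53/Nf1 change and -0.20 in the p53 Nf1KO change.

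In the myelinating oligodendrocyte list 2 of 20 were called, Mbp (-2.17 ± 0.59, adjusted p = 0.0322), myelin basic protein, and Mog (-2.83 ± 0.82, adjusted p = 0.0450), a surface protein of myelin. Both were lower, where 2.40% of named genes were called lower. Mbp read 10.06 to 13.12 (median 11.76) in the cis p53/Nf1 gliomas, against 14.17, 13.39 and 15.01 in the Z1 forebrains. It read 11.01, 11.47, 11.60 and 10.75 in the p53 Nf1KO gliomas, against 11.73, 11.59, 11.91 and 11.69 in the Z2 forebrains. A second probe set of Mbp differed by -0.54 and was not called (adjusted p = 0.559). Mbp kept a high rank in every group, at percentile 91.8 in the cis p53/Nf1 gliomas and 96.1 in the p53 Nf1KO gliomas. A fit to the 4 groups alone did not call Mbp (adjusted p = 0.0625) or Mog (adjusted p = 0.0512), and of 20 fits without 1 array 8 lost the call of Mbp and 13 that of Mog. The forebrain regional list, transcription factors and region-specific genes of cortex and striatum, had 1 of 25 called lower, Penk, beside 2.40% of named genes. Of the 25, 20 had a negative difference. An unadjusted p under 0.05 was reached by 9, all lower, beside 19.6% of all probe sets in either direction. Quantile normalization called 7 lower, a common median and SD 6, and a fit to the 4 groups alone 4. The list's medians were -1.70 in the cis p53/Nf1 change and -0.52 in the p53 Nf1KO change.

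In energy metabolism 1 of 24 hypoxia and glycolysis genes and 4 of 25 oxidative phosphorylation genes were called lower and none higher, beside 2.40% of named genes called lower. Aldoa, the glycolytic enzyme aldolase A, read 12.93 to 13.78 (median 13.46) in the cis p53/Nf1 gliomas, against 14.75, 15.12 and 14.87 in the Z1 forebrains. It read 12.88, 12.99, 12.85 and 12.68 in the p53 Nf1KO gliomas, against 12.95, 12.99, 12.86 and 13.03 in the Z2 forebrains. The difference was -1.39 ± 0.18 (SE), with an adjusted p of 0.000207. It was the call of the hypoxia and glycolysis list, whose median difference was -0.098. Those of the oxidative phosphorylation list included Sdha (-0.89 ± 0.17, adjusted p = 0.00388), a subunit of succinate dehydrogenase, Ndufb8 (-0.86 ± 0.18, adjusted p = 0.00835) of complex I and Uqcrc2 (-0.88 ± 0.20, adjusted p = 0.0111) of complex III. The median of that list was -0.22. None of these 3 was called in the p53 Nf1KO gliomas against forebrain, with changes of -0.21, -0.11 and -0.17.

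Among genes higher in the cis p53/Nf1 gliomas, Vim led. It encodes vimentin, the intermediate filament of neural progenitors and reactive astrocytes. It read 13.36 to 14.33 (median 13.80) in the cis p53/Nf1 gliomas, against 9.51, 9.39 and 8.83 in the Z1 forebrains. It read 11.74, 11.92, 11.89 and 12.32 in the p53 Nf1KO gliomas, against 10.50, 9.81, 10.25 and 10.04 in the Z2 forebrains. Vim had risen in both models, by 4.50 in the cis p53/Nf1 gliomas and 1.82 in the p53 Nf1KO gliomas, with a difference of 2.69 ± 0.37 (SE, adjusted p = 0.000207). By rank Vim stood at percentile 99.4 in the cis p53/Nf1 gliomas and 61.8 in the Z1 forebrains, and at 98.6 in the p53 Nf1KO gliomas and 88.6 in the Z2 forebrains. Its change in the p53 gliomas was 1.99.

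Sox3, a SOXB1 transcription factor of neural progenitors, read 8.92 to 10.22 (median 9.22) in the cis p53/Nf1 gliomas, against 7.83, 7.26 and 6.74 in the Z1 forebrains. It read 4.48, 4.46, 4.34 and 4.75 in the p53 Nf1KO gliomas, against 4.59, 4.85, 4.02 and 4.64 in the Z2 forebrains. Every cis p53/Nf1 glioma exceeded every Z1 forebrain, and no p53 Nf1KO glioma left the range of its forebrains. The difference was 2.17 ± 0.34 (SE, adjusted p = 0.00122), and the p53 gliomas changed by 0.17. Sox3 ranked at percentile 64.7 in the cis p53/Nf1 gliomas and 30.9 in the Z1 forebrains, and at 23.9 in the p53 Nf1KO gliomas and 25.1 in the Z2 forebrains. With Vim and Sox2 (0.83 ± 0.24, adjusted p = 0.0453), the related factor of neural stem cells, Sox3 made up the 3 called among 21 neural stem and progenitor genes, all higher, where 1.53% of named genes were called higher. Sox2 had risen in both models, by 1.51 in the cis p53/Nf1 gliomas and 0.67 in the p53 Nf1KO gliomas, and its call was lost in 14 of 20 fits without 1 array.

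The remaining leading higher genes included cell cycle, chromatin and transcription genes. Ccnd1, the cyclin D1 that drives entry into the cell cycle downstream of RAS signalling, read 12.70 to 13.76 (median 13.24) in the cis p53/Nf1 gliomas, against 9.47, 10.08 and 9.69 in the Z1 forebrains. It read 10.10, 9.38, 9.80 and 10.60 in the p53 Nf1KO gliomas, against 8.47, 8.26, 8.02 and 8.33 in the Z2 forebrains. It had risen by 3.58 in the cis p53/Nf1 gliomas and by 1.70 in the p53 Nf1KO gliomas, and differed by 1.88 ± 0.48 (SE, adjusted p = 0.0237). The call was lost without Z1 forebrain 1, Z1 forebrain 3, Z2 forebrain 1 or p53 Nf1KO glioma 2, and the p53 gliomas changed by 3.18. Tcf3 (1.80 ± 0.38, adjusted p = 0.00893), an E protein that pairs with bHLH factors, had risen by 2.30 in the cis p53/Nf1 gliomas and changed by 0.50 in the p53 Nf1KO gliomas (adjusted p = 0.259).

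Mest (2.38), an imprinted gene of the alpha/beta hydrolase fold family, Zfp867 (2.02), a zinc finger gene, and Doc2a (1.90), a calcium-binding protein of vesicle release, had risen in the cis p53/Nf1 gliomas and were not called in the p53 Nf1KO gliomas. Elk3 (1.82), an ETS factor of the ternary complex family that RAS signalling acts on, and Actl6a (1.73), the BAF53a subunit of SWI/SNF complexes, had risen in both models. Gkn3 (1.86) reached this group by another route: it had fallen in the p53 Nf1KO gliomas (-2.45, adjusted p = 0.000187). It was not called in the cis p53/Nf1 gliomas (-0.59, adjusted p = 0.177). Gkn3 changed on average by -3.07 in the p53 gliomas, which share the Z2 forebrains, so its fall was not particular to the p53 Nf1KO gliomas. Zfp867 stood at percentile 10.4 in the Z1 forebrains and 53.4 in the Z2 forebrains, the widest gap between the 2 forebrain groups among the 20 leading genes. Of the 10 leading higher genes, Gkn3 and Actl6a each lost the call in 8 of 20 fits that left out 1 array, Ccnd1 in 4 and Elk3 in 3 (Z1 forebrains 1 and 2, p53 Nf1KO glioma 2).

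Genes of antigen presentation by MHC class I differed in 2 of 10 measured members, both higher, beside 1.53% of named genes called higher. B2m, the invariant light chain of class I molecules, read 13.10 to 14.30 (median 14.04) in the cis p53/Nf1 gliomas, against 11.99, 11.77 and 11.57 in the Z1 forebrains. It read 12.72, 12.19, 12.67 and 12.60 in the p53 Nf1KO gliomas, against 11.74, 11.80, 11.79 and 11.91 in the Z2 forebrains. It had risen in both models and differed by 1.35 ± 0.27 (SE, adjusted p = 0.00685). By rank B2m stood at percentile 99.5 in the cis p53/Nf1 gliomas and 92.7 in the Z1 forebrains, and at 99.6 in the p53 Nf1KO gliomas and 98.1 in the Z2 forebrains. Tap2, a subunit of the peptide transporter, differed by 1.43 ± 0.32 (SE, adjusted p = 0.0104). All 10 members had a positive difference, with a median of 0.73.

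The broader interferon list did not follow in the calls. None of its 30 measured members passed, and 1 had an unadjusted p under 0.05, in the lower direction. Against forebrain 24 members had risen in the cis p53/Nf1 gliomas (median 2.29) and 25 in the p53 Nf1KO gliomas (median 2.07). The member with the largest difference, the antiviral GTPase Mx1, changed by 0.78 in the cis p53/Nf1 gliomas and 1.95 in the p53 Nf1KO gliomas (-1.17, adjusted p = 0.253).

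Genes of mitosis and DNA replication had risen in both models, and no difference between the models passed the threshold in either list. Of 23 cyclin, CDK inhibitor and E2F genes 1 was called, Ccnd1, higher, beside 1.53% of named genes called higher. Of 31 mitosis genes, 30 had risen in the cis p53/Nf1 gliomas (median 3.71) and 30 in the p53 Nf1KO gliomas (median 3.17). None of the 31 differed by the test, 1 had an unadjusted p under 0.05, and 1 and 3 passed with a common median and SD and after quantile normalization. Mki67, the proliferation antigen Ki-67, read 10.21 to 12.36 (median 11.69) in the cis p53/Nf1 gliomas, against 5.86, 5.63 and 5.67 in the Z1 forebrains. It read 9.23, 7.80, 9.12 and 10.21 in the p53 Nf1KO gliomas, against 4.28, 6.08, 3.63 and 4.42 in the Z2 forebrains. Both models exceeded all their forebrains, and the difference of 1.23 had a 95% interval of -0.78 to 3.24. Of 30 DNA replication genes, 28 had risen in the cis p53/Nf1 gliomas (median 2.45) and 20 in the p53 Nf1KO gliomas (median 1.46). None differed by the test, and 6 had an unadjusted p under 0.05, all higher, beside 19.6% of all probe sets in either direction. With a common median and SD and after quantile normalization 10 and 8 passed, all higher.

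Markers of oligodendrocyte progenitors, the cell state many gliomas resemble, also had risen in both. Of 15 measured, 13 had risen in the cis p53/Nf1 gliomas (median 2.67) and 10 in the p53 Nf1KO gliomas (median 1.79), and none differed by the test. At an unadjusted p under 0.05 there were 3, all higher, beside 19.6% of all probe sets in either direction. With a common median and SD 5 were called. Pdgfra, the receptor for platelet-derived growth factor, read 9.75 to 13.66 (median 12.97) in the cis p53/Nf1 gliomas, against 9.62, 10.21 and 9.51 in the Z1 forebrains. It read 9.65, 8.84, 9.40 and 9.03 in the p53 Nf1KO gliomas, against 7.61, 7.29, 7.18 and 7.30 in the Z2 forebrains. Cis p53/Nf1 glioma 8 was the lowest of its group and lay within the range of its forebrains. Pdgfra differed by 1.02 (95% interval -0.61 to 2.64), and Olig2, the lineage transcription factor, by 1.08 (adjusted p = 0.351).

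**Figure D4:**
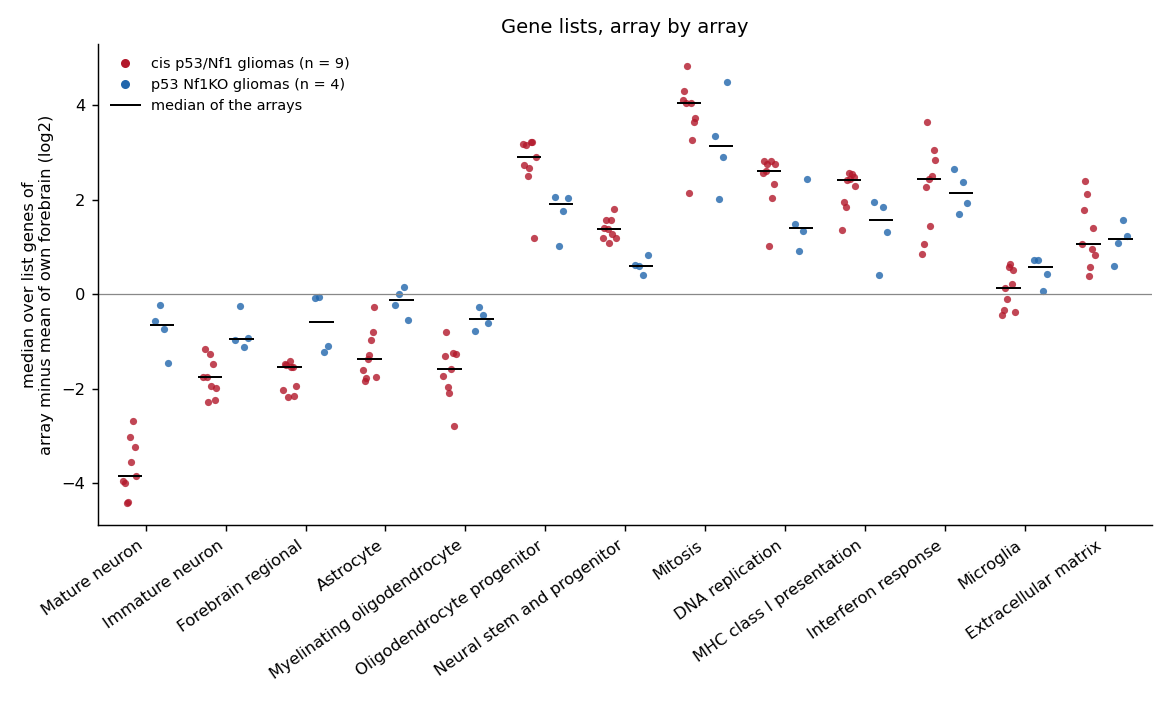
Median over the measured genes of 13 lists of each array minus the mean of its own forebrain (log2), with cis p53/Nf1 gliomas left of p53 Nf1KO gliomas and a bar at the median of the arrays. The mature neuron medians lie between -4.42 and -2.68 in cis p53/Nf1 gliomas and between -1.46 and -0.22 in p53 Nf1KO gliomas, while the mitosis and interferon medians of the models overlap.

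Genes of RAS and its regulators were called in both directions. Of 25 neurofibromin, RAS and RAS regulator genes 2 were called higher and 2 lower, beside 1.53% and 2.40% of named genes. The higher were Nf2 (0.87 ± 0.22, adjusted p = 0.0233), the tumour suppressor merlin, and Sos1 (0.63 ± 0.17, adjusted p = 0.0296), an exchange factor that activates RAS. The lower included Rasgrp1 (-2.94 ± 0.78, adjusted p = 0.0282), a RAS exchange factor of neurons and lymphocytes. It read 6.33 to 7.37 (median 6.57) in the cis p53/Nf1 gliomas, against 10.76, 10.66 and 9.70 in the Z1 forebrains. It read 7.49, 8.36, 6.52 and 6.99 in the p53 Nf1KO gliomas, against 7.49, 8.88, 7.54 and 8.15 in the Z2 forebrains, where tumours 3 and 4 lay below all forebrains. Of 17 RAS-MAPK output genes 10 had risen in the cis p53/Nf1 gliomas (median 1.65) and 6 in the p53 Nf1KO gliomas (median 0.79), and the calls of the difference were Ccnd1, higher, and Epha4 (-2.27 ± 0.65, adjusted p = 0.0440), an ephrin receptor, lower. Without 1 array, the call was lost in 4 of 20 fits for Nf2, 5 for Sos1, 5 for Rasgrp1 and 15 for Epha4.

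Of 29 PI3K, AKT and mTOR genes 2 were called lower and none higher, beside 2.40% of named genes called lower. By sign the list leaned the other way, with 21 positive and 8 negative differences and a median of 0.34. An unadjusted p under 0.05 was reached by 8 in the higher and 5 in the lower direction. Quantile normalization called 3 higher and 2 lower, and a common median and SD 3 higher and 4 lower. Deptor, an inhibitor of mTOR kinase, had fallen by 2.67 in the cis p53/Nf1 gliomas and was not called in the p53 Nf1KO gliomas (-0.65, adjusted p = 0.294). The difference was -2.02 ± 0.53 (SE, adjusted p = 0.0287), and the call was lost in 7 of 20 fits that left out 1 array. None of 27 p53 target genes and none of 31 receptor tyrosine kinases and ligands passed. At an unadjusted p under 0.05 there were 5 and 3, beside 19.6% of all probe sets. After quantile normalization, and also with a common median and SD, 2 p53 target genes were called higher and 2 lower. No receptor tyrosine kinase or ligand was.

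At 29 of the 752 called probe sets it was the p53 Nf1KO gliomas that had moved further from forebrain, a property of 33.4% of all probe sets. Of the 29, 21 were called higher and 8 lower in the cis p53/Nf1 gliomas. They represented 19 named genes, 12 higher and 7 lower, and those described were picked out after their values were seen. The largest was Hoxd9, a homeobox gene that patterns the posterior body in the embryo. It read 7.31 at the lowest and 8.06 at the median in the cis p53/Nf1 gliomas, whose highest array stood 2.71 above the forebrain mean, against 7.43, 7.26 and 7.17 in the Z1 forebrains. It read 10.82, 9.91, 6.38 and 9.86 in the p53 Nf1KO gliomas, against 3.68, 3.79, 3.54 and 3.75 in the Z2 forebrains. Relative to the forebrain mean, p53 Nf1KO gliomas 1, 2, 3 and 4 stood at 7.14, 6.23, 2.70 and 6.17, so glioma 3 was the lowest of the 4 and still above every Z2 forebrain. At 2.70 it lay just below the highest cis p53/Nf1 glioma at 2.71, so the models overlapped. The difference was -4.31 ± 0.89 (SE, adjusted p = 0.00819), kept in all 20 fits that left out 1 array. The p53 gliomas, on the same forebrains, changed by 0.07. By rank Hoxd9 stood at percentile 49.9 in the cis p53/Nf1 gliomas and 31.1 in the Z1 forebrains, and at 80.2 in the p53 Nf1KO gliomas and 15.2 in the Z2 forebrains. Its neighbour Hoxd8 had risen in both models, by 2.84 in the cis p53/Nf1 gliomas (adjusted p = 0.00708) and 4.0 in the p53 Nf1KO gliomas (adjusted p = 0.00648), and the difference of -1.17 did not pass (adjusted p = 0.671). Hoxd10 changed by 0.16 and 0.48 and was called in neither.

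Ifi204, Slfn9, Tlr1 and Tifa were among the others called lower. Ifi204, an interferon-inducible DNA sensor, read 4.73 to 6.29 (median 5.76) in the cis p53/Nf1 gliomas, against 4.32, 4.52 and 4.53 in the Z1 forebrains. It read 6.71, 5.73, 5.75 and 5.78 in the p53 Nf1KO gliomas, against 1.86, 2.28, 2.00 and 1.91 in the Z2 forebrains. In both forebrain groups it ranked at the bottom, at percentiles 0.0764 (Z1) and 0.0873 (Z2), where the lowest values of the Z1 arrays lie above those of the Z2 arrays. The difference was -2.84 ± 0.69 (SE, adjusted p = 0.0191). Slfn9 (-2.74), of the Schlafen family, changed by 0.02 in the cis p53/Nf1 gliomas and had risen by 2.77 in the p53 Nf1KO gliomas, from forebrain percentiles of 8.75 (Z1) and 1.87 (Z2). Tlr1 (-2.11), a Toll-like receptor for bacterial lipopeptides, changed by 0.39 in the cis p53/Nf1 gliomas and had risen by 2.50 in the p53 Nf1KO gliomas. Tifa (-1.53), which carries innate immune signals to NF-kB, had fallen by 0.72 in the cis p53/Nf1 gliomas (adjusted p = 0.0294) and changed by 0.80 in the p53 Nf1KO gliomas (adjusted p = 0.0707). Leaving out 1 array at a time, the call was lost in 2 of 20 fits for Ifi204, 3 for Slfn9, 7 for Tlr1 and 4 for Tifa. In the p53 gliomas, on the same Z2 forebrains, the mean change was 4.58 for Ifi204, 4.03 for Slfn9, 2.40 for Tlr1 and 0.24 for Tifa. How far the different lower limits of the 2 sets contribute was not tested.

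Prm1, a sperm protamine, was also called (-3.93 ± 1.01, adjusted p = 0.0253), but not after quantile normalization (adjusted p = 0.147) or with a common median and SD (adjusted p = 0.216). It read 10.79 to 12.83 (median 11.24) in the cis p53/Nf1 gliomas, against 4.15, 10.01 and 3.95 in the Z1 forebrains. It read 11.09, 10.53, 10.73 and 10.82 in the p53 Nf1KO gliomas, against 1.13, 1.75, 0.99 and 1.26 in the Z2 forebrains. All gliomas were thus high and 6 of 7 forebrains were at the lower end of their arrays, while Z1 forebrain 2 at 10.01 lay far above them and below every glioma. Leaving out 1 array lost the call in 4 of 20 fits (Z1 forebrain 2, Z2 forebrains 1 and 3, p53 Nf1KO glioma 2), and without Z1 forebrain 2 the difference was -1.94 (adjusted p = 0.0530). Going the other way, Adam10 (1.51 ± 0.35, adjusted p = 0.0157), a membrane protease that sheds receptors, had risen by 0.72 in the cis p53/Nf1 gliomas and changed by -0.79 in the p53 Nf1KO gliomas (adjusted p = 0.0532). Pln (1.20 ± 0.27, adjusted p = 0.0110), phospholamban, had fallen by 1.33 in the p53 Nf1KO gliomas and changed by -0.13 in the cis p53/Nf1 gliomas.

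**Figure D5:**
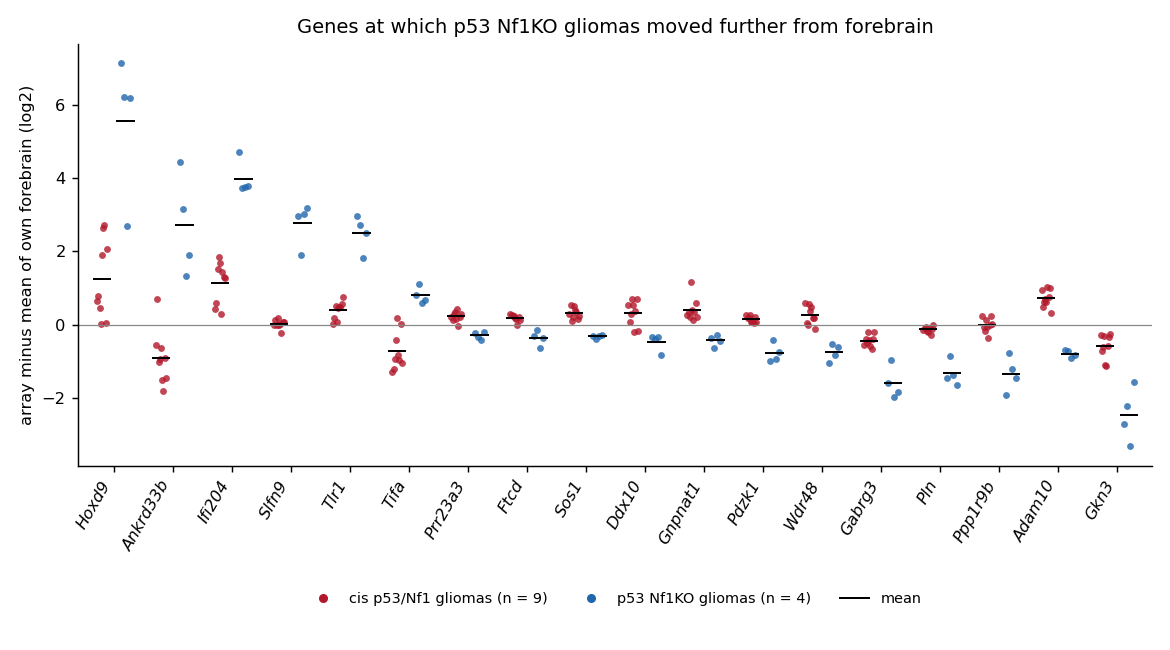
Genes called in the difference of differences at which the p53 Nf1KO gliomas moved further from forebrain, Prm1 left out, each array minus the mean of its own forebrain (log2), cis p53/Nf1 gliomas left of p53 Nf1KO gliomas. Hoxd9 reaches 7.14 in p53 Nf1KO glioma 1 and 2.70 in glioma 3, and Gkn3 falls in every p53 Nf1KO glioma.

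Shares are given for 7 short motifs, out of more that were looked at, in promoters of called genes over the 250 bases before the start, on both strands, in RefSeq promoters of build GRCm38.p6. Of the measured genes 12782 had a promoter entry, among them 206 called higher and 305 called lower in the cis p53/Nf1 gliomas. The cAMP response element tgacgtca was present in 2.91% of the higher, 4.26% of the lower and 2.60% of all measured genes. The left part of the RE1 element, ttcagcacc, which the neuronal repressor REST binds, was present in 0 of 206 higher genes, 2 of 305 lower genes (0.656%) and 0.376% of all. An ETS factor site, acttccgg, was present in 11.2% of the higher, 2.30% of the lower and 5.16% of all. The GC box gggcggggc (20.4%, 21.6% and 19.3%), the E-box cacgtg (10.2%, 10.5% and 9.02%), the CCAAT box (38.8%, 40.0% and 40.0%) and the core of the interferon-stimulated response element (1.46%, 3.61% and 3.09%) are given in the same order. No test was made of these shares, and a match is not a bound site.

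The promoters of Syn1, Chgb and Tcf3 are printed because they show these motifs in genes of the comparison, with the matches in capitals. Syn1 (chrX:20920919-20921168, minus strand) holds the RE1 part and a cAMP response element, and Chgb (chr2:132781392-132781641, plus strand), which encodes the granule protein secretogranin 1 and differed by -4.33 (adjusted p = 0.00819), holds a cAMP response element. Tcf3 (chr10:80433636-80433885, minus strand), among the leading higher genes, holds an ETS site.
Syn1: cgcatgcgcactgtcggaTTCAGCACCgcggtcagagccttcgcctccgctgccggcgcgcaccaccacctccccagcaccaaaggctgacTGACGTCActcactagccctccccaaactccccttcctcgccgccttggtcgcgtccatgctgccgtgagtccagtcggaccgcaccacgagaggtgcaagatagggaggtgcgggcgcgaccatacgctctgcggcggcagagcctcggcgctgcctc
Chgb: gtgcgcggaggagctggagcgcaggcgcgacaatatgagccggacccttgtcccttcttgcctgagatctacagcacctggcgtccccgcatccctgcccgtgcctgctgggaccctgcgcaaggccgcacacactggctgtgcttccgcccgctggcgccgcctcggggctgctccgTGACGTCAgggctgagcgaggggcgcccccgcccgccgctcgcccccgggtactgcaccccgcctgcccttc
Tcf3: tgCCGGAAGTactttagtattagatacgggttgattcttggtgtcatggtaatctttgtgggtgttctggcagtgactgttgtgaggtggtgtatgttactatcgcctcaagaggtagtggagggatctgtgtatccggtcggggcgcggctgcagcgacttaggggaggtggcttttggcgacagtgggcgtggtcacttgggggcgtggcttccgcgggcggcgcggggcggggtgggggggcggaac

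Called genes were spread over all chromosomes. On chromosome 11, which holds Nf1 and Trp53, 32 of 1343 named genes were called higher and 28 lower in the cis p53/Nf1 gliomas, or 2.38% and 2.08%, beside 1.53% and 2.40% over all named genes. Chromosome 10 had 30 called higher (3.99%) and 11 lower of 751. Chromosome 19 had none higher and 22 lower (3.96%) of 555, and chromosome 18 none higher and 13 lower (3.20%) of 406. The median difference was 0.085 on chromosome 11, 0.15 on chromosome 10, -0.085 on chromosome 19 and -0.034 on chromosome 18, beside 0.067 over all probe sets.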

How the data were processed

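The authors deposited normalized log2 values for 18328 custom probe sets, from Affymetrix mouse arrays per the labels' protocols, in a pair of tables with identical values (largest difference 0). The labels and file headers do not record the summarisation of probes, the normalization, or a joint treatment of Z1 and Z2. From these values group means over all 32 arrays (6 groups, no covariate) were fitted by lmFit, contrasts.fit and eBayes (limma 3.58.1, R 4.3.3), and p-values were adjusted by Benjamini-Hochberg over all probe sets, with calls at 0.05. Errors are SEs of that fit unless named otherwise. The fit was tested on simulated data in which all groups had the same spread at a probe set, so that test does not cover groups of unequal spread. The number of arrays limits the precision. Names came from RefSeq (GRCm38.p6): 17226 probe sets matched 1 gene, 785 several and 317 none, giving 16195 named genes, each represented by its probe set with the highest mean.

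Named are the 10 most positive and 10 most negative genes by difference among those called under all 3 scalings whose model arrays, relative to own forebrain, did not overlap (unnamed and provisional gene models left out), then Nf1, Trp53 and Rictor, and from each of 39 gene lists up to 3 called members with the lowest adjusted p, or else the member with the largest difference; some list members are not reported here. Genes at which the p53 Nf1KO gliomas moved further, the defining markers and the printed promoters were chosen after their values were seen. Hoxd8, Hoxd10, Map2, Dlg4 and Grin2a are named as exceptions of this kind. Members and lists were chosen with earlier results of these data known, and more motifs were searched than the 7 given. Lists were described by counts and medians, with no set test. Python 3.11.15, numpy 2.4.6 and pandas 2.3.3 were used for the tables.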

Additional observations from a re-analysis of the deposited data

Results flagged for a closer look

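The change from forebrain differed between the 2 glioma models at 752 probe sets, by the limma test of that difference itself, and the report describes these.

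Within groups, 276 groups of 4 to 9 arrays (92 named genes) were searched for an array far from the others by Dixon's test at 95%, which chance passes in about 1 in 20 groups, and 22 passed. Cis p53/Nf1 glioma 8 stood out 3 times, with low Pdgfra (9.75, the others 12.29 to 13.66), low Matn4 (9.72, the others 11.75 to 13.80) and high Deptor (6.97, the others 5.33 to 6.11). Pdgfra and Matn4 are markers of oligodendrocyte progenitors. Cis p53/Nf1 glioma 4 had low Olig2 (11.31, the others 12.34 to 13.28), high Doc2a (9.37, the others 8.07 to 8.43) and high Gnpnat1 (9.25, the others 8.20 to 8.68). Of the other cis p53/Nf1 gliomas, number 5 had low Rrm2 (8.69, the others 11.04 to 12.51), number 3 high Mog (7.84, the others 5.17 to 6.12), number 2 high Ankrd33b (8.12, the others 5.61 to 6.87) and number 7 low Slfn9 (5.73, the others 5.93 to 6.12). Ttr, the transthyretin made by choroid plexus, was high in cis p53/Nf1 glioma 6 (14.03, the others 5.82 to 9.20).

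Among the p53 Nf1KO gliomas, number 4 had low Ttr (8.29, the others 13.02 to 13.07), low Calb1 (5.94, the others 9.77 to 10.02), the calcium buffer calbindin of neurons, and low Ddx10 (6.26, the others 6.69 to 6.74). Number 2 had low Slfn9 (4.45, the others 5.53 to 5.73) and number 1 high Ifi204 (6.71, the others 5.73 to 5.78).

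Among the Z2 forebrains, number 3 had high Mog (11.05, the others 9.65 to 9.73), high Fgfr2 (8.73, the others 8.19 to 8.27), high Tifa (7.45, the others 6.59 to 6.72) and low Snap25 (12.31, the others 12.44 to 12.45). Number 2 had high Vsnl1 (12.01, the others 11.75 to 11.78) and number 4 low Hells (3.97, the others 4.42 to 4.44).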

How the results depend on the processing

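The number of probe sets with a called difference of differences was 752, with 328 higher and 424 lower in the cis p53/Nf1 gliomas. It was 2250 (1263 higher, 987 lower) after quantile normalization, 2621 (1424 higher, 1197 lower) with a common median and SD, 1649 (781 higher, 868 lower) in a fit to the 4 groups alone and 159 (56 higher, 103 lower) at an adjusted p under 0.01. A minimum difference of 1 on the log2 scale left 169 higher. Leaving out 1 array gave 284 to 1251 in all, 113 to 612 higher and 166 to 639 lower. The cis p53/Nf1 change, called at 7681 probe sets, was called at 4054 with a minimum of 1 on the log2 scale and at 6287 to 7809 without 1 array. The p53 Nf1KO change, called at 1535, was called at 3058 in a fit to the 4 groups alone, 420 at an adjusted p under 0.01, 846 with a minimum of 1 on the log2 scale, and 441 (without p53 Nf1KO glioma 4) to 2686 (without p53 Nf1KO glioma 2) when 1 array was left out. The mature neuron count of 13 became 27 after quantile normalization, 28 with a common median and SD, 28 in the 4 groups alone, 3 at an adjusted p under 0.01 and 8 to 18 without 1 array. The causes were not tested. With the replicate number as a replicate block the count was 382 (138 higher, 244 lower), and 4 of the 20 leading genes lost their call under the block. Same-numbered arrays of different groups had deviations that correlated between -0.19 and 0.44. Differently numbered arrays were not compared in this way, so these values do not settle whether the numbers pair the arrays. Centring arrays on their median (761), a filter on low values (885), 1 probe set per gene (682) and a trended robust fit (739) kept the count of 752 within 1.5 times. No named gene's difference changed sign under these alternatives, but the balance of the calls turned: 43.6% of them were higher, against 56.1% after quantile normalization and 54.3% with a common median and SD. Values near the lower limit of the arrays carry the least information, and this limit differs between the sets. The highest value of an array differed too. It was 15.4, 15.7 and 15.5 in Z1 forebrains 1, 2 and 3, and 13.7, 13.7, 13.6 and 13.6 in Z2 forebrains 1 to 4. Some genes called lower ranked near the top of the Z2 forebrains, such as Snap25 (percentile 99.4) and Aldoa (99.9). In the Z1 forebrains Snap25 ranked at percentile 92.4. B2m, called higher, ranked at percentile 98.1 in the Z2 forebrains and 92.7 in the Z1 forebrains. How far the different upper ends contribute to the calls in either direction was not tested.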

Other observations

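Several groups of genes not described above had few or no called members. Over all named genes 1.53% were called higher and 2.40% lower, and 19.6% of all probe sets had an unadjusted p under 0.05. Of 20 microglia genes none passed, 3 had an unadjusted p under 0.05 and 16 had a negative difference, with median changes of 0.32 in the cis p53/Nf1 gliomas and 0.47 in the p53 Nf1KO gliomas. Of 19 macrophage and monocyte genes 1 passed, the leukocyte integrin Itgal (0.65 ± 0.19, adjusted p = 0.0473), with medians of 1.66 and 1.24 in the same order. Of 22 endothelial genes 1 passed, the efflux transporter Abcg2 (0.99 ± 0.24, adjusted p = 0.0185), which had risen by 1.77 in the cis p53/Nf1 gliomas and 0.78 in the p53 Nf1KO gliomas. None of 28 extracellular matrix genes passed and none had an unadjusted p under 0.05, with medians of 1.34 in the cis p53/Nf1 gliomas and 1.21 in the p53 Nf1KO gliomas.

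Sterol synthesis genes had a negative difference in 20 of 22, none called and 7 at an unadjusted p under 0.05. In that list 11 had fallen in the cis p53/Nf1 gliomas (median -0.58) and none was called in the p53 Nf1KO gliomas (median -0.16). Of 20 immediate early genes 1 was called, Homer1 (-1.36 ± 0.39, adjusted p = 0.0448), a postsynaptic scaffold, and 16 had a negative difference. The 2 other probe sets of Homer1 differed by -0.27 (adjusted p = 0.886) and -0.65 (adjusted p = 0.546) and were not called. Of 24 genes of the proneural glioma signature 2 were called higher and 1 lower: the lower was Stmn1 (-1.24 ± 0.29, adjusted p = 0.0153), a microtubule-destabilising protein, and one of the higher was the E protein Tcf12 (1.57 ± 0.44, adjusted p = 0.0363), beside Sox2. Of the 39 lists, 18 had no called member. In 20 fits that each left out 1 array, the call was lost in 15 for Itgal, 2 for Abcg2, 10 for Homer1, 1 for Stmn1 and 9 for Tcf12.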
